A study of Mus musculus with 6 samples.

Results

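Progression through the meiotic divisions is driven by cyclin A and cyclin B complexes of cyclin-dependent kinases (Cdks), and 10 mouse genes of this machinery were followed here from spermatocytes to spermatids: the cyclins Ccna1, Ccna2, Ccnb1 and Ccnb2, the kinases Cdk1 and Cdk2, the Cdk-binding subunits Cks1b and Cks2, the activating phosphatase Cdc25c, and securin, encoded by Pttg1. The genes were chosen by name, as every transcript contig annotated with one of these symbols. Of the 10 genes, 8 had reads, on 15 contigs, out of 7101 genes and 11517 annotated transcripts with reads in the series. Ccna2 and Cks1b were not analysed here.

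Poly(A) tails and read counts came from nanopore direct RNA sequencing of germ cells sorted from the testes of adult wild-type C57BL/6J/B6 male mice. One group was pachytene and diplotene spermatocytes (P/D spermatocytes), late meiotic prophase cells, and the other was round spermatids (RS), the haploid cells that follow the meiotic divisions. Each group held 3 samples, and each sample was a pool of mRNA from 3 mice. The cells were sorted by DNA content and light scatter and were enriched rather than pure, the P/D gate less so than the RS gate according to the study's microscopy. The P/D samples formed 1 barcoded library and the RS samples another, so cell type and library cannot be told apart.

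In late prophase, Cdk1 bound to a B-type cyclin forms the M-phase promoting kinase, which Cdc25 phosphatases switch on and Cks proteins help to reach its substrates. Cyclin A1 is a germline cyclin that male mice need to enter the first meiotic division, and Cdk2 also acts at the telomeres of prophase chromosomes. Securin holds separase inactive until the anaphase-promoting complex or cyclosome (APC/C), which also marks the B-type cyclins, sends it for destruction, and the poly(A) tail at the 3′ end of an mRNA is bound by proteins that affect its translation and its decay.

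Each sample held between 244004 and 474688 reads. Tails were mostly longer in RS: the median gene had a mean tail of 115 nt in P/D samples, against 157 nt in RS. Of 5317 genes tested, 838 had a shorter mean tail in RS. Markers of P/D spermatocytes (7 of 7 genes with reads, among them Sycp3 and Piwil1) made up 0.216% to 0.232% of reads in P/D samples and 0.144% to 0.156% in RS. Adam3, the gene of this list with the most reads in every sample, went the other way. It had 156, 229 and 183 reads in P/D samples and 339, 557 and 376 in RS (log2 change 0.743, edgeR). Round spermatid markers (7 of 7) made up 0.0346% to 0.0441% in P/D samples and 0.234% to 0.249% in RS, and genes listed as elongating spermatid markers (7 of 7) 0.167% to 0.221% and 2.12% to 2.62%. The latter are protamine and transition protein genes, Smcp and Odf1. According to the study, such mRNAs are made in RS and translated later, so their reads do not by themselves show elongating cells. Of the leptotene and zygotene markers, 3 of 7 had reads, with 0.0275% to 0.0386% in P/D samples and 0.00899% to 0.0135% in RS, and Stra8, Meiob, Prdm9 and Dmc1 stood at 0 in both. Spermatogonial, Sertoli and Leydig markers stayed at or below 0.00258% of reads in every sample, with Zbtb16, Kit, Sox9, Amh, Wt1, Cyp11a1 and Star at 0. The marker lists moved with cell type, and their part in the results below was not tested. In sorted bulk samples, fewer cells of a type and less RNA per cell cannot be told apart.

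The annotated 3′ ends of these transcripts are shown first, to place the isoforms that are compared below. Where the reads themselves end was not tested. No tail or count result was tested against these sequences. Each line gives 30 bases of GRCm38 (transcripts of GENCODE vM21), 5′ to 3′ on the transcript's strand, around the polyadenylation hexamer AATAAA or ATTAAA in capitals, the letters that the cleavage machinery reads.
Ccna1, chr3:55045477-55045506, minus strand: gtattttaaaagAATAAAcaacttgctgtt
Pttg1, chr11:43420271-43420300, minus strand: gtatgttgtattAATAAAgcatttgtgcat
Cdk1, chr10:69335156-69335185, minus strand: ctaatggcacggAATAAAaggattattcac
Ccnb1, ENSMUST00000072119, chr13:100778656-100778685, minus strand: ctttatgttgctAATAAAcatagttttcga
Ccnb1, ENSMUST00000091295, chr13:100778747-100778776, minus strand: gatatcaagttgAATAAAatttattggtgg
Ccnb2, chr9:70407693-70407722, minus strand: gtattgaaggaaAATAAAgctattgatcta
Cks2, chr13:51650620-51650649, plus strand: cctgttttgttaAATAAAgtttgtatattg
Cdk2, chr10:128697946-128697975, minus strand: gtttgtaaattcATTAAAagaaaatattct

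Of the 15 member contigs, 14 held a hexamer in their last 50 nt on the transcript strand, 11 of them AATAAA, against 77.5% with either and 63.3% with AATAAA among 6901 transcripts. Cdk2 and both Cdc25c contigs held ATTAAA. The contig without either was the short Ccna1 isoform ENSMUST00000199144, which is annotated to end 5117 nt of genome upstream of the common Ccna1 end. The letters of a cytoplasmic polyadenylation element, searched as TTTTAT or TTTTAAT on the transcript strand in the last 150 nt, occurred in 4 of the 15 contigs, both Ccnb1 isoforms, Cdk2 and Cks2, and in 19.1% of all transcripts of that length or more. In Ccnb1 the element began 144 nt from the end of ENSMUST00000072119 and 62 nt from the end of ENSMUST00000091295, whose end lies 82 nt upstream, while it began 51 nt from the end in Cks2. TGTANATA, the letters of a Pumilio element, occurred in the last 500 nt of 7 of the 15 contigs, 4 Ccna1 isoforms, Cks2 and both Cdc25c contigs, and in 9.13% of 6781 transcripts. Those 4 Ccna1 isoforms end within 9 nt of each other, and the Cdc25c contigs also end close together. Contigs of 1 gene thus repeat the same letters, so the contig counts of each motif are not independent matches. Enrichment was not tested. A match is a run of letters only, and neither element overlaps the hexamers shown.

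Of 8 member genes, none passed the test for longer tails in RS and 3 passed for shorter tails, Ccna1, Pttg1 and Cdk1, while 54.9% of 5317 genes were longer and 2.11% shorter (limma on the mean tail of each sample, adjusted p below 0.05). At an unadjusted p below 0.05, too, 0 member genes were longer, and the equal-variance test named in the study's methods also gave 0. The difference, RS minus P/D, was above 0 in 4 of the 8 members, Ccnb2, Cdk2, Cks2 and Cdc25c, and below 0 in 4, with a median of -8.26 nt over the members and 34.9 nt over all genes. All 8 genes passed the read filter, Cdk2 and Cks2 only through P/D spermatocytes and Cdc25c only through RS, so their means in the other cell type rest on few reads, and a miss there does not show that their tails were equal.

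**Figure D1:**
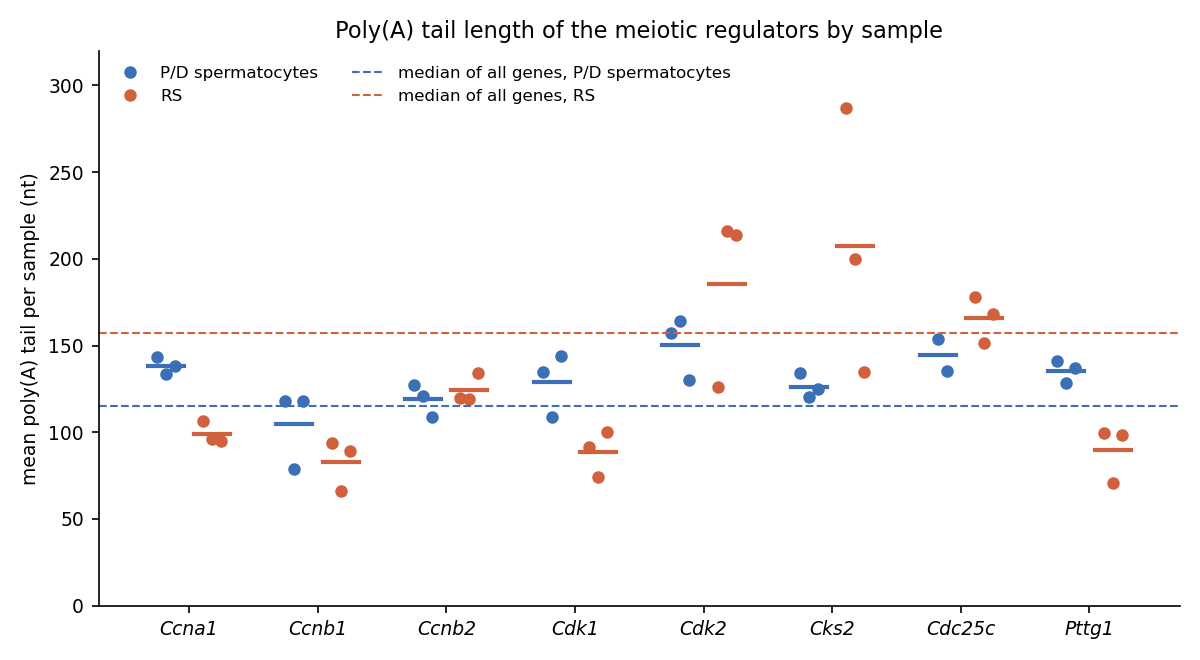
Mean poly(A) tail length (nt) of each member gene in each of the 3 P/D and 3 RS samples; points are samples, short bars the mean of the samples, and dashed lines the median of all genes in each cell type. The RS points of Ccna1, Pttg1 and Cdk1 lie below all their P/D points, and the RS means of these genes, Ccnb1 and Ccnb2 lie below the RS median of 157 nt.

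Ccna1 had mean tails of 143, 133 and 138 nt in the P/D samples and 106, 96.2 and 95.01 nt in RS. All RS samples lay below all P/D samples. The mean fell by 39.1 nt (SE 5.81), from 138 ± 5.02 to 99.2 ± 6.24 nt (SD, n = 3 in each), with an adjusted p of 0.00172 (limma). The gene stood longer than 75.2% of genes in P/D spermatocytes and longer than 3.25% in RS.

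Pttg1 had mean tails of 141, 128 and 137 nt in P/D samples and 99.4, 70.9 and 98.7 nt in RS, again with no overlap. The decrease was the largest of the members, 45.8 nt (SE 9.31), from 135 ± 6.42 to 89.6 ± 16.2 nt (SD, n = 3), with an adjusted p of 0.00648 (limma). Only 0.696% of all genes had a lower difference.

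Cdk1 had mean tails of 135, 109 and 144 nt in P/D samples and 91.3, 74.5 and 100.4 nt in RS, with no overlap. The mean fell by 40.5 nt (SE 11.4), with an adjusted p of 0.0234 (limma), but the RS means rest on 3, 13 and 14 reads. This call was lost without P/D sample 1 or 3 or RS sample 1 or 2 (adjusted p from 0.0566 to 0.0673), and with the equal-variance test (0.0659). Non-overlapping groups with shorter tails in RS thus occurred in 3 of the 7 member genes with a tail in every sample, against 3.1% of 5036 genes. Those with longer tails occurred in 1 of 7, Cks2 by a narrow margin given below, against 62.4%.

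The B-type cyclins, Cdk1's partners, did not pass the test. Ccnb1 tails averaged 118, 78.7 and 118 nt in P/D samples and 93.8, 66.1 and 89.0 nt in RS, and P/D sample 2 lay within the RS values. The difference of -21.8 nt (SE 13.4) had an adjusted p of 0.216 (limma), and 0.0295 without P/D sample 2. In RS its mean of 83.0 ± 14.8 nt (SD, n = 3) was longer than that of 0.752% of genes, the lowest place among the members. Ccnb2 tails averaged 127, 121 and 109 nt in P/D samples and 119.6, 119.4 and 134 nt in RS, which overlapped. The difference was 5.30 nt (SE 7.37, adjusted p = 0.575, limma), in a transcriptome whose median gene was 34.9 nt longer.

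Few reads limited the other members. Cks2 tails averaged 134, 120.1 and 125 nt in P/D samples, from 187 to 214 reads each, and 287, 199.9 and 134 nt in RS, from 4, 15 and 8 reads. The RS values spread widely, and the lowest, 134.5 nt from 8 reads, lay barely above the highest P/D value, 133.9 nt. The difference of 80.9 nt (SE 36.4) had an adjusted p of 0.106 (limma). It passed when samples were weighted by reads (67.5 nt, adjusted p = 0.00182), when tails over 300 nt and under 10 nt were left out (43.7 nt, 0.0433) and without RS sample 3 (117 nt, 0.0158). Cdk2 tails averaged 157, 164 and 130.03 nt in P/D samples and 126, 216 and 214 nt in RS, from 1, 2 and 3 reads. These groups overlapped, with a difference of 35.1 nt (SE 26.0, adjusted p = 0.297, limma), which passed at 64.7 nt without the single read of RS sample 1 (0.00807). Cdc25c, with 2 reads in each of P/D samples 2 and 3 and none in sample 1, averaged 154 and 135 nt there and 178, 151 and 168 nt in RS (difference 21.3 nt, adjusted p = 0.155, limma, over 5 samples).

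Single reads showed what lay behind the means. Over all genes, reads with tails of 30 to 120 nt made up 61.2% ± 1.56 (SD, n = 3) in P/D spermatocytes and 22.4% ± 1.65 in RS, and reads of 120 to 210 nt 29.5% ± 0.941 and 67.4% ± 1.00. Reads below 30 nt made up 2.91% ± 0.593 and 0.262% ± 0.106, and reads of 210 nt and over 6.36% ± 0.402 and 9.94% ± 0.779. Ccna1, Pttg1, Ccnb1 and Ccnb2, the members that held 10 or more reads in each sample, had mean shares of 53.3% to 78.6% in the short class in RS. The exact permutation tests below are two-sided, and 3 samples against 3 cannot give a p under 0.1.

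Short tails of Ccna1, 30 to 120 nt, made up 38.6%, 47.3% and 52.9% of reads in P/D samples and 61.4%, 63.1% and 70.9% in RS (exact permutation p = 0.1). Its share of 120 to 210 nt overlapped between the groups, at 31.2% ± 7.17 and 25.2% ± 6.69 (SD, n = 3, exact permutation p = 0.5). The larger difference was above that class, where tails of 210 nt and over made up 20.3% ± 2.25 of P/D reads and 6.02% ± 1.60 of RS reads (SD, n = 3, exact permutation p = 0.1).

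For Pttg1, the short class held 30.9%, 39.3% and 43.8% of reads in P/D samples and 57.1%, 61.5% and 67.4% in RS, and the class of 120 to 210 nt held 35.3%, 41.1% and 26.6% and then 17.9%, 10.3% and 16.3% (exact permutation p = 0.1 for each, with no overlap). Tails below 30 nt, a class that held 0.262% ± 0.106 of all RS reads, made up 14.3%, 23.1% and 4.65% of Pttg1 reads in RS, from 28, 39 and 43 reads. They made up 8.82%, 3.57% and 4.69% in P/D samples, which overlapped with RS (exact permutation p = 0.3). The median securin tail went from 129 ± 4.85 to 59.9 ± 9.67 nt (SD, n = 3, exact permutation p = 0.1), while tails of 210 nt and over still made up 9.16% ± 3.52 of RS reads.

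Ccnb1 was mostly short in both cell types, with 57.1%, 73.9% and 64.7% of P/D reads and 73.9%, 82.5% and 79.4% of RS reads in the class of 30 to 120 nt (exact permutation p = 0.2). P/D sample 2 and RS sample 1 held the same share, so the groups met. The class of 120 to 210 nt held 26.0% ± 14.6 and 15.2% ± 6.25 (SD, n = 3, exact permutation p = 0.4).

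Ccnb2, whose mean did not pass the test, had smaller shares of RS reads at both ends of its distribution. Its reads below 30 nt made up 3.23%, 4.82% and 8.06% in the P/D samples, 11 of 207 reads, and 0 of 421 reads in RS, which allows a share of up to 0.713% by counting error alone. Reads of 210 nt and over made up 16.1%, 13.3% and 9.68% in P/D samples and 5.38%, 5.99% and 8.06% in RS (exact permutation p = 0.1 for both classes, with no overlap). Over all genes the share below 30 nt was also smaller in RS, at 2.91% and 0.262%. That of 210 nt and over was larger in RS, at 6.36% and 9.94%. The standard deviation over reads went from 68.3 ± 2.18 to 49.8 ± 4.56 nt and the 10th percentile from 40.3 ± 7.48 to 72.9 ± 7.72 nt (SD, n = 3, exact permutation p = 0.1 for each). A narrower spread was general: it decreased in 93.6% of 1857 genes that had 20 or more reads in each sample, and 32.2% of them had a decrease larger than that of Ccnb2. The 10th percentile decreased in 2.05% of these genes, with medians of 44.5 nt in P/D samples and 102 nt in RS, and 22.6% of them had a change below the 32.6 nt of Ccnb2. The share of 30 to 120 nt stood at 50.3% ± 2.55 and 53.3% ± 2.89 (SD, n = 3, exact permutation p = 0.2), a difference whose sign turned with a class of 30 to 90 nt, while that of 120 to 210 nt was 31.3% ± 1.95 and 40.2% ± 1.48 (p = 0.1, exact permutation).

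**Figure D2:**
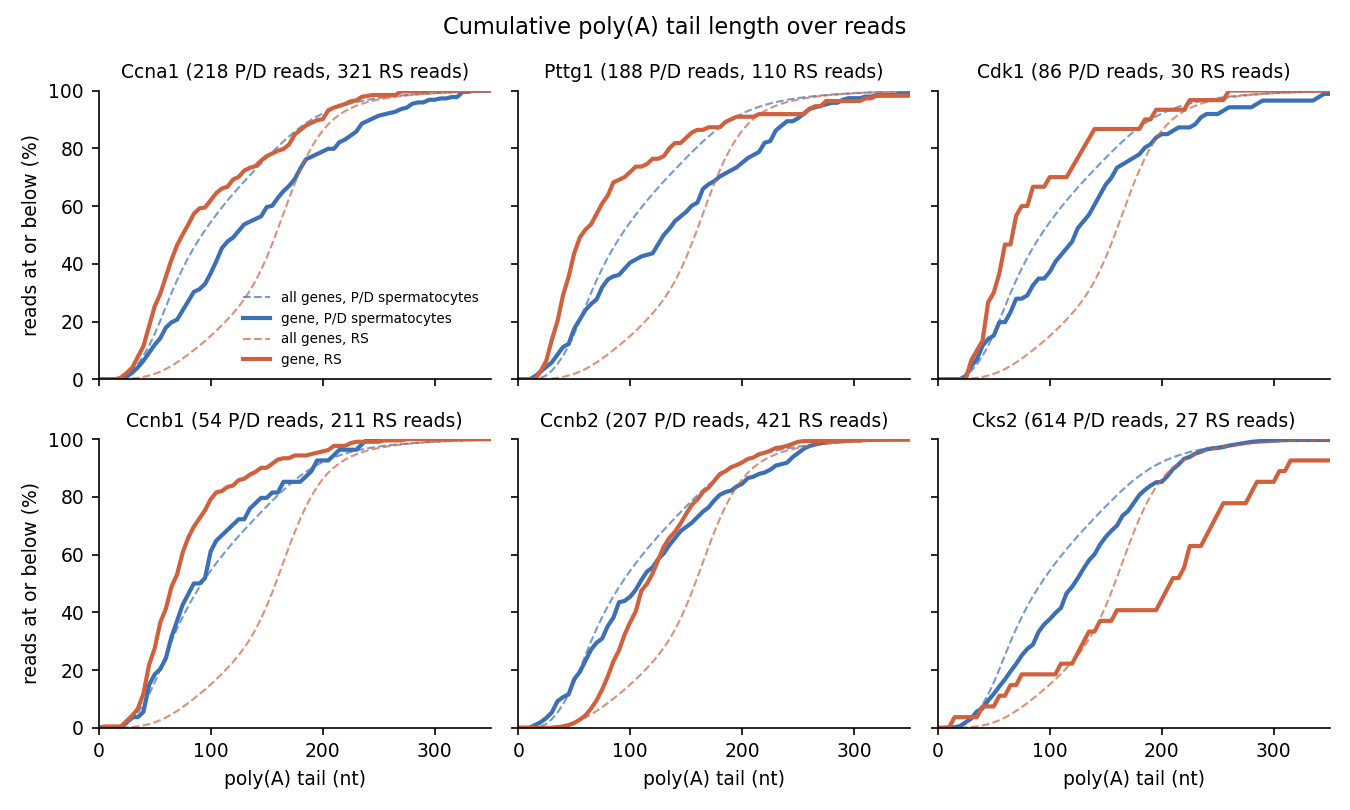
Cumulative share of reads (%) at or below each tail length (nt) for 6 member genes, with the reads of the 3 samples of a cell type pooled; solid lines are the gene, dashed lines all genes, blue P/D spermatocytes and orange RS. For Ccna1, Pttg1, Cdk1 and Ccnb1 the RS curve lies to the left of the P/D curve over most of its range, while for all genes it lies to the right, and the Ccnb2 curves, with medians of 109 and 115 nt, cross.

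Of 7 genes tested for transcript accumulation, the B-type cyclins rose in RS, the kinases Cdk1 and Cdk2, the subunit Cks2 and securin fell, and Ccna1 did not pass the test. The 2 that rose compare with 34% of 4892 genes and the 4 that fell with 32.6% (edgeR quasi-likelihood test, adjusted p below 0.05). Of those that fell, Cdk1, Cdk2 and Cks2 passed the count filter only through P/D spermatocytes, where they were high. Their calls are therefore not independent of that filter. Values below are CPM, reads scaled to the total reads of the sample, and folds come from the fitted model.

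Cks2 changed most. Its level was 766, 696 and 789 CPM in the P/D samples and 12.6, 31.6 and 22.5 CPM in RS, with every RS sample far below every P/D sample. The fitted decrease was 30.1-fold (log2 change -4.91, SE 0.21, adjusted p = 2.92e-29, edgeR). Cdk2 went from 86.1, 58.8 and 66.3 CPM to 3.16, 4.21 and 8.43 CPM, also without overlap. It fell 11.9-fold (log2 change -3.57, SE 0.45, adjusted p = 4.19e-10, edgeR).

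Cdk1 went from 102, 91.5 and 122 CPM in P/D samples to 9.47, 27.4 and 39.3 CPM in RS. The groups did not overlap, and Cdk1 was 3.80-fold lower (log2 change -1.92, SE 0.32, adjusted p = 3.73e-07, edgeR). Pttg1 went from 279, 183 and 236 CPM to 88.4, 82.2 and 121 CPM. It was 2.28-fold lower, a smaller loss than that of Cks2 (log2 change -1.19, SE 0.20, adjusted p = 8.75e-07, edgeR).

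Ccnb1 was at 57.4, 75.2 and 62.7 CPM in P/D samples and 145, 204 and 191 CPM in RS. All RS samples stood above all P/D samples, a 2.90-fold rise (log2 change 1.54, SE 0.23, adjusted p = 3.60e-08, edgeR). Ccnb2 was at 254, 271 and 229 CPM and rose to 411, 352 and 348 CPM, without overlap. Its rise was 1.53-fold (log2 change 0.62, SE 0.15, adjusted p = 0.00029, edgeR).

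Ccna1 was at 234, 297 and 258 CPM in P/D samples and 278, 274 and 289 CPM in RS, which overlapped. The log2 change of 0.15 (SE 0.16) had an adjusted p of 0.407 (edgeR), and with upper-quartile factors its sign turned, to -0.087. Its tails thus fell by 39.1 nt at a read count that did not pass the test. Cdc25c had 0, 2 and 2 reads in P/D samples and 14, 13 and 14 in RS, or 0, 6.54 and 7.37 CPM against 44.2, 27.4 and 39.3 CPM. It did not pass the count filter, and in the fit of all 7074 genes without that filter it rose 7.15-fold (log2 change 2.84, SE 0.60, adjusted p = 8.70e-06, edgeR). CPM values did not overlap between the groups in 6 of the 7 member genes tested, 2 higher and 4 lower in RS, against 33.5% and 36.9% of 4892 genes.

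**Figure D3:**
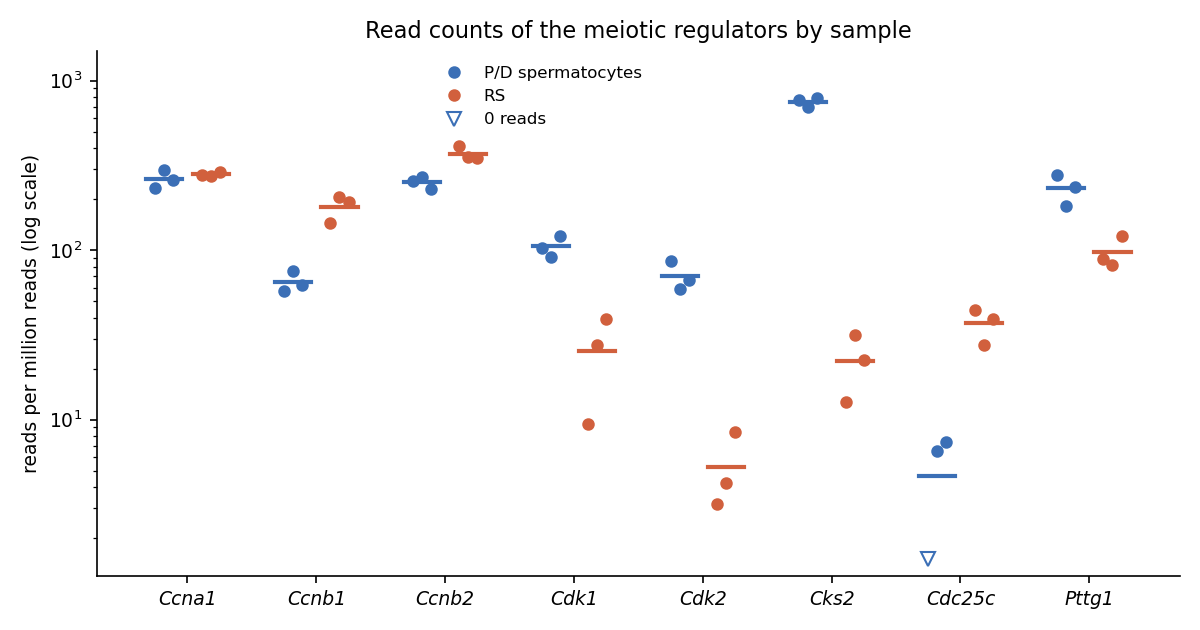
CPM (log scale) of each member gene in each of the 3 P/D and 3 RS samples; points are samples, short bars the means, and the open triangle marks the P/D sample with 0 Cdc25c reads. Cks2 drops from 696 to 789 CPM in P/D samples to 12.6 to 31.6 CPM in RS, Ccnb1, Ccnb2 and Cdc25c rise, and the Ccna1 samples overlap.

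Set side by side, tail and count did not move in 1 common pattern. Of the 3 genes with shorter tails in RS, Pttg1 and Cdk1 also had fewer reads and Ccna1 did not. Cks2 and Cdk2 lost the most reads, and the few that remained in RS had mean tails of 207 ± 76.6 and 185.5 ± 51.4 nt (SD, n = 3), longer than the RS median of 157 nt, although neither difference passed the test. Ccnb1 and Ccnb2 gained reads while their tails, at 83.0 and 124 nt in RS, stayed below that median.

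**Figure D4:**
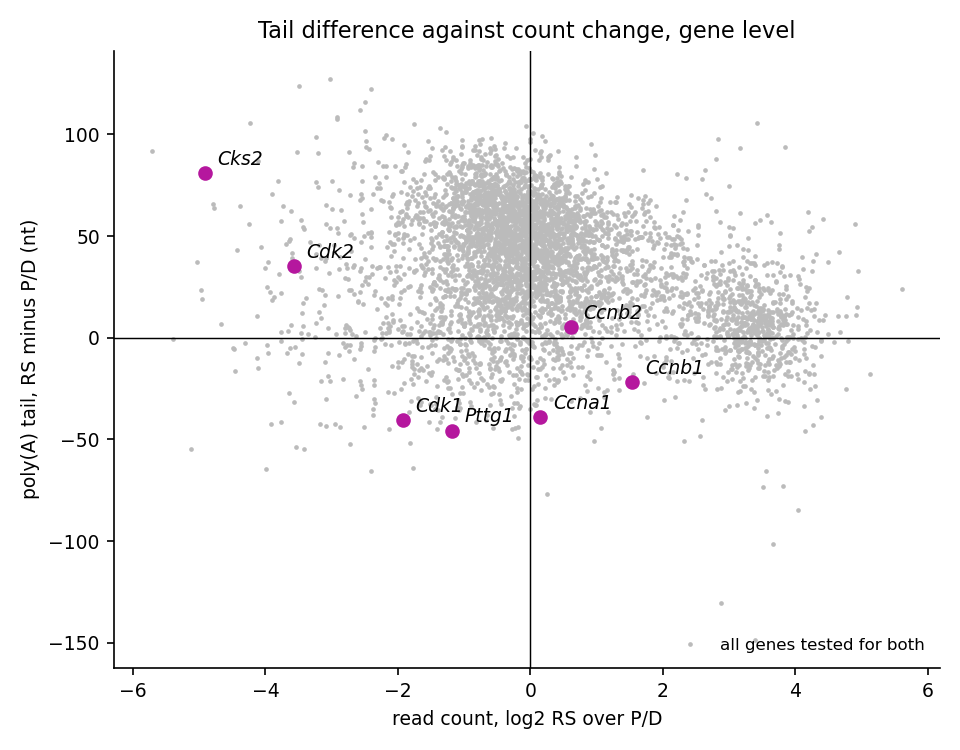
Difference in mean poly(A) tail (nt, RS minus P/D) against the log2 change in read count (RS over P/D) for the 4834 genes tested for both, in grey, with 7 member genes in colour. Ccna1, Pttg1, Cdk1 and Ccnb1 lie below 0 on the tail axis, Cks2 and Cdk2 at the far left above it.

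Among isoforms, 12 member contigs passed the tail filter, of which 5 were shorter in RS and 0 longer, against 1.69% and 54.2% of 6990 transcripts (limma, adjusted p below 0.05, and 0 longer at an unadjusted p below 0.05 or with the equal-variance test). The 5 were 3 Ccna1 isoforms, Cdk1 and the main Pttg1 isoform. Of 10 contigs tested for counts, 4 rose and 6 fell, against 32.6% and 30.8% of 6005 transcripts.

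The 3 Ccna1 isoforms share a coding length of 1263 nt and 3′ ends that lie within 3 nt. They differ in their exons, with spliced lengths of 1719, 1560 and 1564 nt, and at their 5′ starts. In the order in which the isoforms are given below, these starts are annotated at positions 55055501, 55055055 and 55055042 of chromosome 3. A read that stops short of its 5′ start could match more than 1 of them. How far the reads reach was not tested, so the split of reads among these isoforms is uncertain. ENSMUST00000197238, with the most reads, had tails of 138, 137 and 133 nt in P/D samples and 96.4, 85.7 and 89.3 nt in RS, without overlap (difference -45.7 nt, SE 5.82, adjusted p = 0.00111, limma). ENSMUST00000029368 had 159.8, 119 and 157 nt, and 83.8, 97.7 and 92.9 nt (difference -53.8 nt, SE 12.4, adjusted p = 0.0112, limma). ENSMUST00000198320 had 139.7, 153 and 181 nt, and 124, 103 and 81.4 nt (difference -55.1 nt, SE 14.8, adjusted p = 0.0204, limma). All 3 means thus fell by 45.7 to 55.1 nt. The last call was lost with the replicate number as a block (adjusted p = 0.0641), without RS sample 2 or 3 (0.0510 and 0.0555), and in other fits given under the processing.

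The shares of reads on these isoforms differed between the cell types, but not past the usage test. ENSMUST00000197238 held 52.6%, 65.9% and 71.4% of Ccna1 reads in P/D samples and 47.7%, 32.3% and 40.8% in RS, with no overlap. ENSMUST00000029368 held 19.3%, 13.2% and 20% and then 15.9%, 35.4% and 33.0%, and ENSMUST00000198320 held 19.3%, 15.4% and 5.71% and then 31.8%, 27.7% and 15.5%. In counts the first isoform fell (log2 change -0.57, adjusted p = 0.0207, edgeR) while the others rose (0.89, adjusted p = 0.0127, and 1.02, adjusted p = 0.00934). Each of these calls was lost in at least 1 fit that left out a sample (adjusted p up to 0.184, 0.0611 and 0.114), and with DESeq2 for the first and second (0.140 and 0.0576). The usage test gave adjusted p-values of 0.0726, 0.182 and 0.143 (edgeR diffSpliceDGE), so 0 of 5 member isoforms tested were called, against 7% of 2471 transcripts. At an unadjusted p below 0.05, 3 were, and a fit with the replicate number as a block called ENSMUST00000197238 (adjusted p = 0.0313).

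The short Ccna1 isoform with the upstream 3′ end had RS means above its P/D means, a comparison chosen after its values were seen. ENSMUST00000199144 had 3, 3 and 0 reads in P/D samples, with mean tails of 128 and 92.6 nt in the samples that held any, and 3, 4 and 7 reads in RS, with means of 173, 132 and 156 nt. In each RS sample this was longer than on the Ccna1 contigs with the common end. Those stood at 104, 95.1 and 90.6 nt, from 85, 126 and 96 reads. With 20 reads in all, ENSMUST00000199144 did not pass the filter for a test. Its annotated coding length of 497 nt is not a whole number of codons, and its annotated end lacks a hexamer. Whether that end is a poly(A) site was not tested. ENSMUST00000198102, a 5-exon isoform with the common end, had 1 to 4 reads in each sample.

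Securin had a pair of isoforms whose ends lie 19 nt apart. ENSMUST00000020687, with most of the reads, had tails of 138, 131 and 139 nt in P/D samples and 105, 74.0 and 89.1 nt in RS, without overlap (difference -46.8 nt, SE 9.07, adjusted p = 0.00566, limma). ENSMUST00000101340 had 159, 117 and 129 nt from 8, 11 and 11 reads, and 78.6, 50.3 and 158 nt from 6, 5 and 6 reads, and overlapped (difference -39.5 nt, SE 28.4, adjusted p = 0.285, limma). Both fell in counts (log2 change -1.21 and -1.24, adjusted p = 1.29e-05 and 0.00647, edgeR), the second not with DESeq2 (0.0982) or without RS sample 2 (0.0968). Their shares of the gene's reads did not change past the test (usage adjusted p = 0.999 and 0.994).

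Of the isoforms of 1 gene, 2 pairs had enough reads for a comparison of tails, and neither passed the test. ENSMUST00000029368 was 5.06 nt longer than ENSMUST00000197238 over the 6 samples (SE 6.73, adjusted p = 0.749, limma), and ENSMUST00000101340 2.53 nt longer than ENSMUST00000020687 (SE 12.7, adjusted p = 0.955). Of all 1089 isoform pairs 5.88% were called. The change of these differences between cell types was -8.10 nt (SE 13.5) for Ccna1 and 7.27 nt (SE 25.4) for Pttg1, with 0 calls among the pairs of either gene and 0% of all pairs called (limma, 124 of 1089 pairs and 0 of the 2 member pairs at an unadjusted p below 0.05).

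The Ccnb1 isoforms, which differ in coding length and in their 3′ ends, were less deeply read. ENSMUST00000072119 held 80.9% to 94.1% of the gene's reads in every sample and rose in counts (log2 change 1.43, SE 0.25, adjusted p = 2.70e-06, edgeR). Its tails averaged 109.8, 76.8 and 118 nt in P/D samples and 93.1, 65.3 and 88.4 nt in RS (difference -19.2 nt, SE 13.3, adjusted p = 0.268, limma). ENSMUST00000091295 had 2, 2 and 1 reads in P/D samples and 7, 10 and 13 in RS, with tails of 166, 99.1 and 118 nt and 97.3, 72.9 and 91.8 nt, without overlap (difference -40.2 nt, SE 17.8, adjusted p = 0.102, limma, and 0.0475 in the fit blocked by replicate number). For Cdc25c, the isoform annotated for nonsense-mediated decay had 0 reads in P/D spermatocytes and 3 reads in every RS sample.

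**Figure D5:**
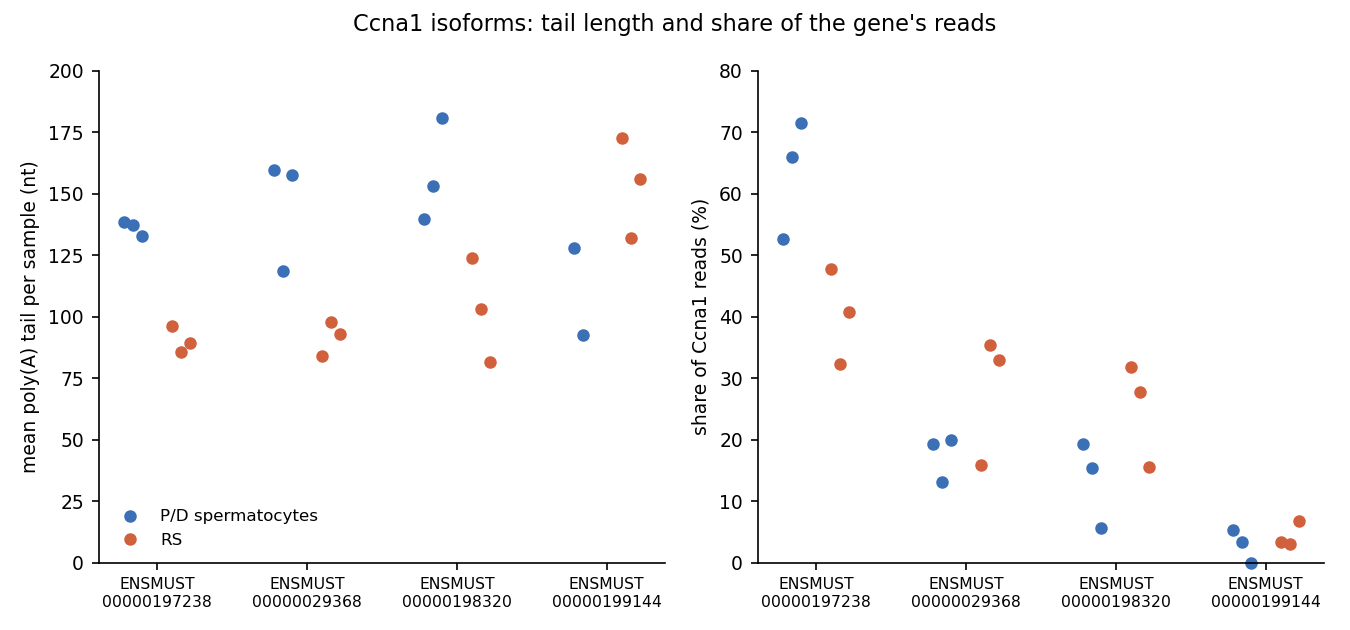
Mean poly(A) tail (nt, left) and share of the gene's reads (%, right) of 4 Ccna1 isoforms in each of the 3 P/D and 3 RS samples; points are samples. The first 3 isoforms, which share a 3′ end, have shorter tails in RS. The last, with the annotated upstream end and 20 reads in all, has RS means of 132 to 173 nt.

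Other genes of the pathway were read from lists that the members are not in. Among APC/C subunits, its activators and inhibitors and separase, 16 of 21 genes had reads and 14 were tested for tails, of which 5 were longer in RS, 3 shorter and 6 not past the test, against 54.9% longer and 2.11% shorter over all genes. The median difference was 10.1 nt, against 34.9 nt. The shorter ones were Cdc20, which activates the APC/C toward securin and cyclin B, Espl1, which encodes separase, and the subunit gene Anapc10. Cdc20 tails averaged 135, 132 and 137 nt in P/D samples and 94.4, 93.2 and 93.1 nt in RS, without overlap (difference -41.3 nt, SE 4.59, adjusted p = 0.000564, limma). Espl1 fell by 27.9 nt (SE 7.85, adjusted p = 0.0235) and Anapc10 fell by 26.3 nt (SE 6.19, adjusted p = 0.0118). The subunit genes Anapc15, Anapc13 and Anapc11 were longer by 84.2, 70.3 and 49.5 nt (adjusted p = 0.00127, 0.000276 and 0.000965, limma). Anapc15 passed the read filter only through P/D spermatocytes. It stood at 9.47, 14.7 and 8.43 CPM in RS, so its RS tails rest on few reads. In counts 4 of 13 rose, 6 fell and 3 did not pass, where 34% of all genes rose and 32.6% fell. Fbxo43, which encodes an APC/C inhibitor of meiotic cells, fell from 43.9 ± 13.0 to 3.74 ± 2.26 CPM, Cdc20 from 224 ± 2.26 to 81.8 ± 13.0 CPM and Anapc15 from 55.3 ± 8.64 to 10.9 ± 3.39 CPM, while Cdc16 rose from 6.00 ± 5.26 to 51.6 ± 9.38 CPM, Anapc10 from 38.9 ± 17.6 to 67.4 ± 20.3 CPM and Cdc27 from 84.2 ± 20.1 to 139 ± 38.4 CPM (SD, n = 3 in each group). Fbxo43 and Anapc15 passed the count filter only through P/D spermatocytes and Cdc16 only through RS. Their calls are not independent of that filter.

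Of a list of Cdk regulators and related genes, 12 of 21 had reads, and of 10 tested for tails 3 were longer, 1 shorter and 6 not past the test, against 54.9% and 2.11% of all genes, with a median difference of 16.7 nt, against 34.9 nt. The shorter one was Cdkn2d, an inhibitor of Cdk4 and Cdk6, at 122 ± 3.59 and 87.5 ± 14.3 nt (SD, n = 3, difference -34.9 nt, SE 8.22, adjusted p = 0.0119, limma). Spdya, a Cdk2 activator at telomeres, was longer by 49.96 nt, Cdkn3 by 41.3 nt and Mnat1 by 40.2 nt (adjusted p = 0.000653, 0.00179 and 0.00222). In counts 2 of 10 rose, 6 fell and 2 did not pass, against 34% and 32.6% of all genes. The phosphatase gene Cdc25a rose from 22.9 ± 2.91 to 105 ± 28.2 CPM and Cdkn3 from 213 ± 45.0 to 502 ± 45.1 CPM. The inhibitors Cdkn2d and Cdkn2c fell, from 239 ± 44.4 to 43.2 ± 2.80 CPM and from 271 ± 10.8 to 58.2 ± 15.9 CPM, and so did Mybl1, from 50.9 ± 20.8 to 19.1 ± 8.43 CPM (SD, n = 3 in each group). Mybl1 encodes a meiotic transcription factor, not a regulator of Cdk activity, and is also among the P/D markers above. Cdc25a passed the count filter only through RS and Mybl1 only through P/D spermatocytes. Their calls are not independent of that filter.

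Cyclins and Cdks outside the meiotic set had reads for 18 of 39 genes. Of 13 tested for tails, 4 were longer in RS, 0 shorter (also 0 at an unadjusted p below 0.05) and 9 not past the test (limma), against 54.9% and 2.11% of all genes, with a median difference of 22.2 nt, against 34.9 nt. Cdk20 was longer by 63.8 nt, Ccnk by 54.3 nt and Cdk19 by 30.3 nt (adjusted p = 0.00396, 0.000464 and 0.0317). In counts 6 of 12 rose, 4 fell and 2 did not pass, against 34% and 32.6% of all genes. Ccnd3, a D-type cyclin, rose from 19.8 ± 14.03 to 136 ± 23.1 CPM, Ccnyl1 from 153 ± 11.9 to 306 ± 21.0 CPM, and Cdk16, with reads in only 1 P/D sample, stood at 44.2, 44.2 and 47.8 CPM in RS. Ccnh fell from 61.8 ± 6.68 to 14.6 ± 12.6 CPM, Cdk20 from 136 ± 18.05 to 51.4 ± 13.7 CPM and Ccny from 79.4 ± 3.69 to 33.5 ± 3.85 CPM (SD, n = 3 in each group). Ccnd3 and Cdk16 passed the count filter only through RS and Ccnh only through P/D spermatocytes. Their calls are not independent of that filter.

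Genes with the most similar pattern were found by the distance between mean tails and centred log2 counts over the 6 samples, among the 1857 genes that had 20 or more reads in each sample. Those nearest to Ccna1 were Dynlrb2, at a mean of 122 nt in P/D samples and 100.8 nt in RS, Gm4871, at 125 and 99.7 nt, and Dnajc7, at 132 and 118 nt (distances 1.30, 1.40 and 1.44). Those nearest to Pttg1 were Mif4gd, at 145 and 105 nt, Sdhaf4, at 115 and 74.0 nt, and Pxt1, at 136 and 103 nt (distances 1.84, 2.02 and 2.06). Cks2, with 4 to 15 reads in the RS samples, did not meet that minimum.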

How the data were processed

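Poly(A) tails and read counts were taken from 6 samples, 3 of P/D spermatocytes and 3 of RS, whose replicates were separate mRNA pools of 3 mice. The authors basecalled the reads with Guppy, demultiplexed them with Deeplexicon, aligned them with minimap2 (version 2.20-r1061 in the submitters' processing notes) to the GENCODE transcripts (build GRCm38), and called tails with Nanopolish, keeping reads that passed its quality call. The deposited values are raw counts per contig, without normalization, and the other measurement deposited by the authors is a tail length (nt) for every read. Each of the 72684 counts equalled the number of rows for that contig and sample in the read table. No member read lay on several contigs, out of 4727 such reads in 1963589. That does not show that the contig of a read was certain among isoforms with a shared 3′ end.

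The 597 repeat contigs were left out of the tests, and 11348 of 11517 transcripts were found in GENCODE vM21, of the same build. Tails were tested with limma 3.58.1 (lmFit, eBayes, in R 4.3.3) on sample means, per transcript and per gene, where 2 or more samples of either cell type held 10 or more reads and both types had 2 or more sample means. For counts, edgeR 4.0.16 was used (TMM, filterByExpr, glmQLFit, glmQLFTest), with its diffSpliceDGE for isoform usage, and DESeq2 1.42.0 was an alternative. Isoform tails were compared where both had at least 5 reads in every sample. Adjusted p-values are Benjamini-Hochberg values over all features tested, with a threshold of 0.05. Single values per sample were compared with two-sided exact permutation tests. Count intervals and limits cover counting error only, a limit for 0 being 3 counts of the total. The steps were tested on simulated data.

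The members, the gene lists and the tests were chosen with earlier results of these data known. Named genes were all members and, of each pathway list, the 3 genes with the largest change in each direction past the threshold, fewer where fewer passed, for tails and counts separately. Alternatives tried were other read filters, median or log2 tails, read weights, tails of 10 to 300 nt, other count normalizations, other class bounds, the replicate number as a block, and leaving out each sample. ES and other genotypes were not analysed here.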

Additional observations from a re-analysis of the deposited data

How the results depend on the processing

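At gene level, the count of members with shorter tails in RS stayed within 2 to 4 across samples left out, and the shorter tails of Ccna1 and Pttg1 passed the test in every fit tried. The count with longer tails was 1 with read weights (Cks2), 1 with tails of 10 to 300 nt (Cks2) and 0 to 1 across samples left out (Cdk2 without RS sample 1, Cks2 without RS sample 3), per gene and per transcript alike. Per transcript, members with shorter tails numbered 3 with the adjusted equal-variance test, 2 with a minimum of 20 reads per sample, and 3 to 7 across samples left out. Among the fits that ended the call for ENSMUST00000198320 were median tails, with an adjusted p of 0.0956, and tails of 10 to 300 nt, with 0.242.

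Over all genes and transcripts, requiring 20 reads in every sample gave 1592 longer and 45 shorter transcripts, and 1598 longer and 47 shorter genes, since fewer were tested. Shorter calls numbered 66 to 141 transcripts and 64 to 128 genes across samples left out, the fewest without RS sample 2, and 71 genes with the adjusted equal-variance test. A minimum of 10 counts in every sample left 768 higher and 725 lower transcripts, 803 higher and 770 lower genes, and 1 member lower at either level, Pttg1 or its main isoform, because the members that fell were low in RS. Without a count filter, 7 member transcripts and 3404 of all transcripts were higher. Ccna1 reads changed by -0.087 on the log2 scale with upper-quartile factors.

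The usage test called 1 member isoform where 10 or more reads were required in each sample and 0 to 2 across samples left out, the most without RS sample 1, and 70 of all transcripts with that minimum and 99 to 220 across samples left out. The Pttg1 usage ratios, near 0, ran from -0.017 to 0.032 for ENSMUST00000020687 and from -0.17 to 0.084 for ENSMUST00000101340 on the log2 scale across samples left out. The Pttg1 isoform tail difference ran from -13.1 to 10.7 nt and its change between cell types from -24.0 to 23.6 nt. Of all isoform pairs, 22 to 52 had a mean difference across samples left out, and 9 a change with a minimum of 10 reads per sample. With classes of 30 to 90 and 120 to 180 nt, the short share differed, RS minus P/D, by 26.7 percentage points for Ccna1 and by -11.9 for Ccnb2.

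P/D and RS samples carry the same replicate numbers, and the study states that the cell types came from the same mice, but not that pools with 1 number share mice. Deviations of same-numbered samples correlated at -0.0106, 0.0771 and 0.0157 for tails and 0.0286, 0.236 and 0.0684 for counts, and not every sample correlated best with its own number. With the replicate number as a block, member genes stayed at 0 longer, 3 shorter, 2 higher and 4 lower. The block gave 1 usage call among members, ENSMUST00000197238 (adjusted p = 0.0313), and 33 isoform pairs with a mean difference, ended the tail call for ENSMUST00000198320, and brought that for ENSMUST00000091295 of Ccnb1 past the threshold (0.0475). Among the members, depth limits Cdk1, Cdk2, Cks2 and Cdc25c, which had 15 reads or fewer in each sample of one cell type.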
